A study of Equus caballus with 6 samples.

Results

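Interstitial collagens are the fibre-forming and fibre-associated collagens of the dermis, and they were followed here through 10 genes. These were COL1A1 and COL1A2 of type I, COL3A1 of type III, COL5A1 and COL5A2 of type V, COL6A1 and COL6A3 of type VI, COL11A1 of type XI, COL12A1 of type XII and COL14A1 of type XIV. A probe set, the group of short probes that reads a transcript on the array, was taken as a member when its single gene symbol in the platform annotation was one of the 10. This gave 20 of 24016 non-control probe sets. They read 7 of the 10 genes, and COL5A1, COL6A3 and COL14A1 were not analysed here because no probe set carried their symbol alone. Of the 20 probe sets, 13 lay above their array's median signal on at least 3 of 6 arrays and were tested, at least 1 for each of the 7 genes.

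The arrays compared lamellar hoof tissue of horses in disease and in health. Each of the 3 laminitis samples (replicates 1, 3 and 4) and the 3 normal samples (replicates 2, 3 and 4) came from a right foot and was hybridised to a bovine GeneChip. Breed, age, the cause of the laminitis and whether the samples were separate horses are not given in the sources used here, so the tests weigh differences against the variation among these 6 arrays alone, part of which could be technical. With so few arrays, precision is limited.

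The lamellae are folds of epidermis and dermis that interlock and hang the coffin bone inside the hoof wall, and laminitis is the disease in which this attachment fails. In the dermal folds, collagen type I fibrils built from COL1A1 and COL1A2 chains carry tension, type III collagen forms finer fibrils mixed with them, and types V and XI sit inside fibrils and limit their thickness. Type VI collagen makes beaded filaments that link cells to the fibrils, and types XII and XIV coat the fibril surface. Fibroblasts make most of these chains, fold them in the endoplasmic reticulum with prolyl and lysyl hydroxylases, trim them outside the cell and cross-link them with lysyl oxidases.

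Both tissue compartments were read on the arrays. VIM, the intermediate filament of mesenchymal cells, averaged 4717 in laminitis and 9247 in normal tissue, and KRT14, a keratin of basal epidermis, had 494 and 383. Array medians lay between 86.7 and 96.6. Laminitis replicate 1 stood apart in some of the bacterial control RNAs read by 3′ and 5′ probe sets, namely dap, lys, phe and thr. Its ratio of 3′ to 5′ signal was 13 for the dap control, against 1.67 to 1.93 on the other arrays, and 5.41 against 1.73 to 2.23 for the thr control. For the bioC control the ratio was 1.15 on that array, within the 1.02 to 1.46 of the others. For the horse transcript of GAPDH the ratio was 9.7 on that array and 4.06 to 6.87 on the others. For actin it was 6.62 on that array and 2.08 to 6.25 on the others. Normal replicate 2 had the highest GAPDH and actin ratios of the other arrays. Levels of some control RNAs also differed, with normal replicates 2 and 3 the lowest. The 3′ probe set of the cre control read 9828 and 9908 on them and 14053 to 15993 on the other arrays. The 5′ probe set of the bioC control read 752 and 766 on them and 1283 to 1633 on the others. Because of its ratios, results are given below without laminitis replicate 1 where that array turns their direction. The part of these ratios and control levels in the collagen values was not tested.

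None of the collagen transcripts passed the test between laminitis and normal tissue, in either direction. The log2 differences, laminitis minus normal, ran from -0.48 for the dimmer COL1A2 probe set to 1.13 for the brightest COL11A1 probe set, with 6 of 13 positive, where 43.7% of all tested probe sets were. Their median was -0.063, beside -0.056 over all 12519 tested probe sets, and it lay between -0.37 without normal replicate 2 and 0.19 without normal replicate 4. Without laminitis replicate 1 it was 0.095, with 8 positive. Other scalings moved the split as well, to 4 of 13 positive after quantile normalization or cyclic loess and 8 of 13 after median centring. The groups overlapped for all 13 probe sets. Limma called 0 of the 13, where it called 0% of all tested probe sets higher and 0% lower, and at an unadjusted p under 0.05 it gave 0 of the 13 and 9.79% of all. Groups did not overlap for 16.8% of all tested probe sets, 7.89% with laminitis higher and 8.92% with laminitis lower. The adjusted p of the members ran from 0.63 to 0.96. In bulk tissue, the number of collagen-making cells and the collagen RNA per cell cannot be told apart.

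What the collagens did show was a wide spread within each group. The residual standard deviation between arrays of a group had a median of 0.92 on the log2 scale over the 13 probe sets and of 0.33 over all tested probe sets. As a result the 95% intervals were wide, with a median half-width of 1.39, and 4 of the 13 ran past a 2-fold change in both directions.

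**Figure D1:**
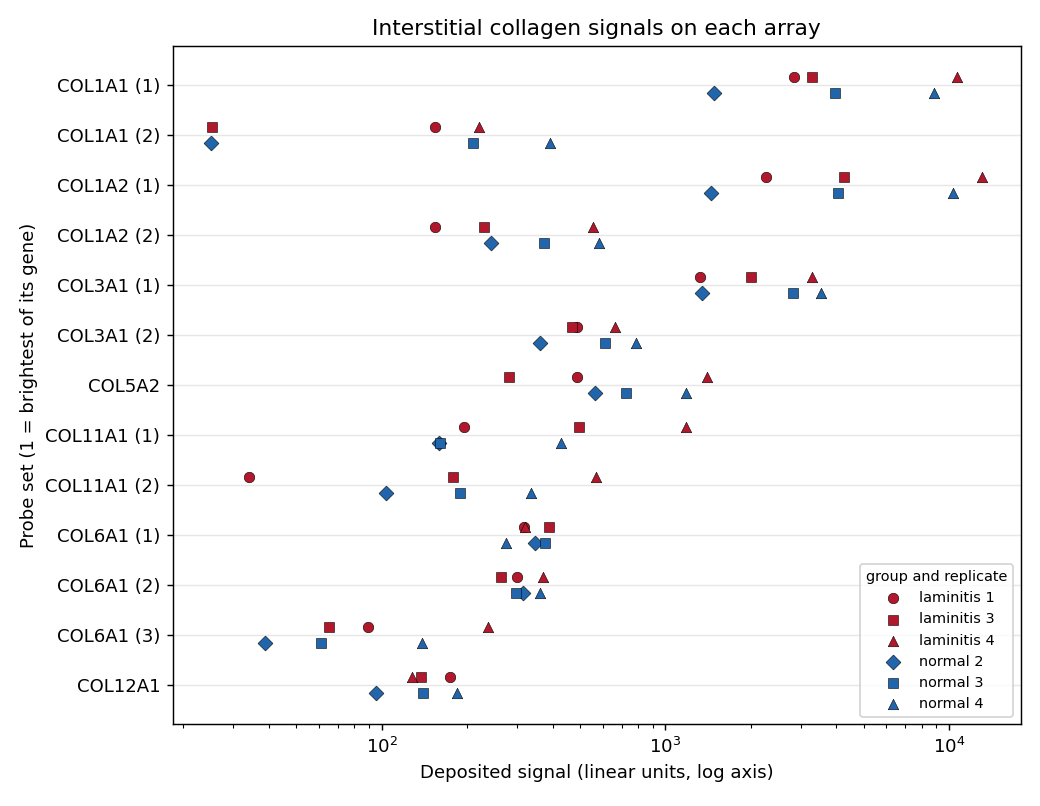
Deposited signal (linear units, logarithmic axis) of the 13 tested collagen probe sets on each of the 6 arrays, with laminitis in red, normal in blue and the marker shape giving the replicate number; probe sets of a gene are numbered from the brightest. Red and blue points overlap in every line, and the triangles (replicate 4 of each group) lie at the right end of their group in 11 of the 13 lines.

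Type I collagen signals differed several-fold between arrays of the same group. The brightest COL1A1 probe set read 2837, 3276 and 10633 on laminitis replicates 1, 3 and 4 and 1487, 3954 and 8865 on normal replicates 2, 3 and 4. Replicate 4 was the highest array of each group, and the lowest of all was normal replicate 2. The highest laminitis array was 3.75 times the lowest and the highest normal array 5.96 times the lowest, whereas the group means of 5582 ± 4380 and 4769 ± 3756 (SD, n = 3) were close. The fold of geometric means was 1.24 in laminitis over normal (log2 0.31 ± 0.74 SE, 95% interval -1.45 to 2.06, limma adjusted p 0.91). Its sign depended on single arrays, with -0.36 without normal replicate 2, -0.29 without laminitis replicate 4 and 0.93 without normal replicate 4.

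COL1A2, the partner chain in the type I heterotrimer, followed the same order of arrays within each group. Its brightest probe set read 2252, 4241 and 13033 on laminitis replicates 1, 3 and 4 and 1452, 4063 and 10278 on normal replicates 2, 3 and 4. The fold was 1.27 (log2 0.35 ± 0.85 SE, 95% interval -1.66 to 2.35, limma adjusted p 0.91), with -0.37 without normal replicate 2, -0.35 without laminitis replicate 4 and 1.04 without normal replicate 4. After quantile normalization the 2 bright type I probe sets lay at -0.074 for COL1A1 and -0.048 for COL1A2, and after cyclic loess at -0.058 and -0.029.

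The dimmer type I probe sets had log2 differences of the opposite sign. The second COL1A1 probe set read 154, 25.3 and 221 in laminitis and 25.1, 209.8 and 393 in normal tissue, in the same replicate order. That is a log2 difference of -0.42 ± 1.18 (SE, n = 3), or 0.53 without laminitis replicate 3 and 0.39 without normal replicate 4. The second COL1A2 probe set read 155, 228 and 555 in laminitis and 244, 375 and 585 in normal tissue, a log2 difference of -0.48 ± 0.52. Both dimmer probe sets also had replicate 4 as the highest array of each group. Over the 6 arrays the Pearson correlation of the dimmer with the brighter probe set was 0.76 for COL1A1 and 0.85 for COL1A2, given as a description.

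Type III collagen is abundant in pliable connective tissue and in healing wounds. The brighter COL3A1 probe set read 1326, 1997 and 3291 on laminitis replicates 1, 3 and 4 and 1349, 2821 and 3539 on normal replicates 2, 3 and 4. The lowest laminitis and the lowest normal array were thus nearly equal, and so were the highest. The log2 difference was -0.21 ± 0.46 (SE, n = 3), with a 95% interval of -1.30 to 0.88 and a limma adjusted p of 0.90, and it was 0.11 without laminitis replicate 1 and 0.078 without normal replicate 4. The dimmer COL3A1 probe set read 486, 469.5 and 666 in laminitis and 361, 611 and 787 in normal tissue, a log2 difference of -0.063 ± 0.33. It changed sign under 6 of 18 alternatives, with -0.38 without normal replicate 2, 0.0039 without laminitis replicate 1 and 0.19 without normal replicate 4. The 2 COL3A1 probe sets had a correlation of 0.91 over the 6 arrays.

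Types V and XI collagen are minor fibril components that seed and restrain fibril growth. The single COL5A2 probe set read 489, 282 and 1401 on laminitis replicates 1, 3 and 4 and 564, 724 and 1186 on normal replicates 2, 3 and 4. Both lowest values were laminitis arrays, and so was the highest. The log2 difference was -0.44 ± 0.59 (SE, n = 3, limma adjusted p 0.83), and it ranged from -1.08 without laminitis replicate 4 to 0.076 without laminitis replicate 3. COL5A2 lies next to COL3A1 among the protein-coding genes of the horse TB-T2T assembly. Across the 6 arrays these neighbours had a Pearson r of 0.71 and a Spearman rho of 0.77 (exact permutation p 0.129 and 0.103, adjusted p 0.324 and 0.36).

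COL11A1 had the largest log2 difference among the tested member probe sets. It is best known from cartilage and is also made by activated fibroblasts. The brightest of its 7 probe sets read 195, 497 and 1180.4 on laminitis replicates 1, 3 and 4 and 159, 161 and 427 on normal replicates 2, 3 and 4. Laminitis lay above normal in 8 of the 9 pairs of arrays, the exception being laminitis replicate 1 against normal replicate 4. The fold was 2.19 (log2 1.13 ± 0.69 SE, 95% interval -0.50 to 2.76, unadjusted p 0.146 and adjusted p 0.63 in limma). The difference was 1.79 without laminitis replicate 1 and 0.49 without laminitis replicate 4.

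A second tested COL11A1 probe set did not share that difference. It read 34.2, 178 and 568 on laminitis replicates 1, 3 and 4 and 103, 189 and 336 on normal replicates 2, 3 and 4, so laminitis held both the lowest and the highest array. Its log2 difference was -0.31 ± 0.98 (SE, n = 3), or 0.77 without laminitis replicate 1, 0.11 without normal replicate 4 and -1.26 without laminitis replicate 4. The 2 tested COL11A1 probe sets had a correlation of 0.74 over the 6 arrays. ACAN, the aggregating proteoglycan of cartilage, averaged 285 in laminitis and 341 in normal tissue, and all 6 tested genes of the cartilage and bone list had overlapping groups.

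**Figure D2:**
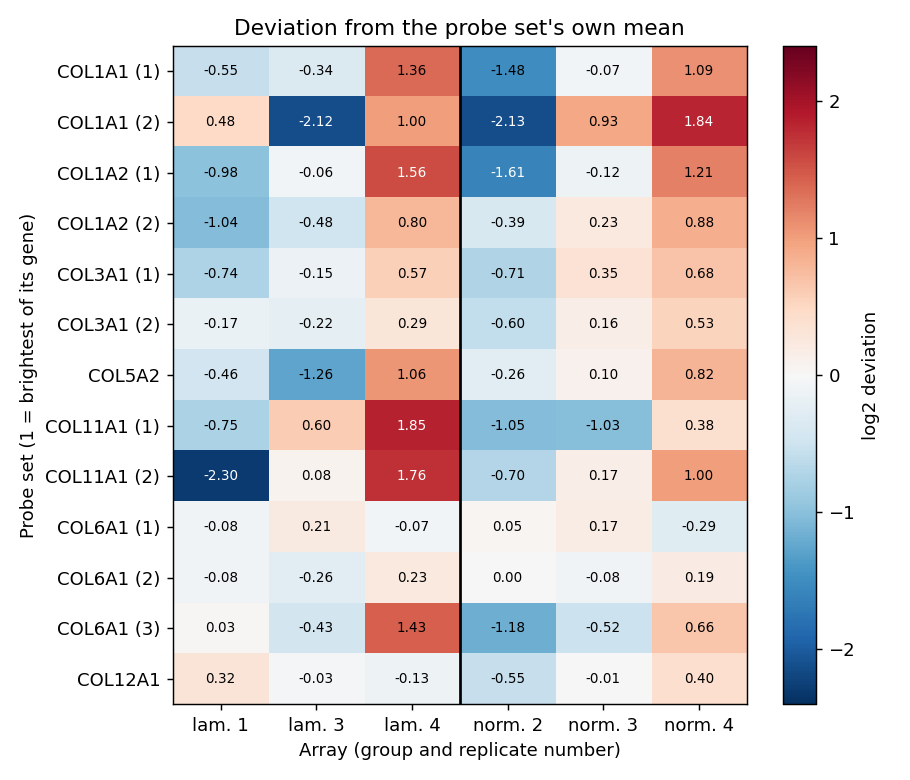
Log2 deviation of each tested collagen probe set on each array from that probe set's own mean over the 6 arrays, with rows as probe sets (numbered from the brightest of a gene) and columns as arrays, laminitis left and normal right of the line. The columns of laminitis replicate 4 and normal replicate 4 are mostly red, with 11 and 12 of 13 probe sets above their mean, and the column of normal replicate 2 is mostly blue, with 2 of 13 above.

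Of the 13 tested probe sets, 2 of the 3 for type VI collagen varied least within groups. The brightest COL6A1 probe set read 318, 388 and 321 on laminitis replicates 1, 3 and 4 and 348, 377 and 275 on normal replicates 2, 3 and 4, a log2 difference of 0.045 ± 0.21 (SE, n = 3) with a 95% interval of -0.45 to 0.54. Without normal replicate 4 it was -0.087, and without laminitis replicate 3 it was -0.048. A probe set of similar brightness read 299, 262 and 369 in laminitis and 315, 298 and 360 in normal tissue, at -0.076 ± 0.21, with 0.038 without laminitis replicate 3 and 0.0017 without normal replicate 4. These 2 probe sets had residual standard deviations of 0.20, under the median of all tested probe sets, and their intervals leave room for at most a 1.46-fold rise or, in the other direction, a ratio of 0.67.

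The third COL6A1 probe set was dim and behaved differently. It read 89.6, 65.1 and 237 in laminitis and 38.8, 61.3 and 139 in normal tissue, with replicate 4 the highest array of each group. Its log2 difference was 0.69 ± 0.61 (SE, n = 3, limma adjusted p 0.74), from 0.14 without laminitis replicate 4 to 1.19 without normal replicate 4, and 0.40 with 64 added to every signal before the logarithm. The brightest COL6A1 probe set had correlations of -0.79 and -0.61 with the other two over the 6 arrays, so COL6A1 probe sets disagreed on the order of arrays. COL6A2, a partner chain of COL6A1 in type VI collagen, had a log2 difference of -0.046 ± 0.26.

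Type XII collagen, which bridges neighbouring fibrils, was read by 1 tested probe set. It carries the suffix that Affymetrix gives to probe sets shared between transcripts. COL12A1 read 175, 137 and 128 on laminitis replicates 1, 3 and 4 and 95.3, 139 and 184 on normal replicates 2, 3 and 4. The log2 difference was 0.11 ± 0.29 (SE, n = 3), with -0.14 without normal replicate 2, -0.022 without laminitis replicate 1 and 0.34 without normal replicate 4. Unlike type I collagen, it was lowest among the laminitis arrays on replicate 4.

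The other 7 probe sets, 5 for COL11A1 and 2 for COL12A1, lay above the array median on at most 2 arrays and were not tested. Their signals ran from 1.99 to 242, and 3 had a positive and 4 a negative log2 difference, from -1.51 to 0.54. Both of these extremes were COL11A1 probe sets, and a further COL11A1 probe set had -1.29, opposite in sign to the brightest. The groups overlapped for all 7. With no filter on dim probe sets none of them passed in limma, at adjusted p from 0.67 to 0.94.

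**Figure D3:**
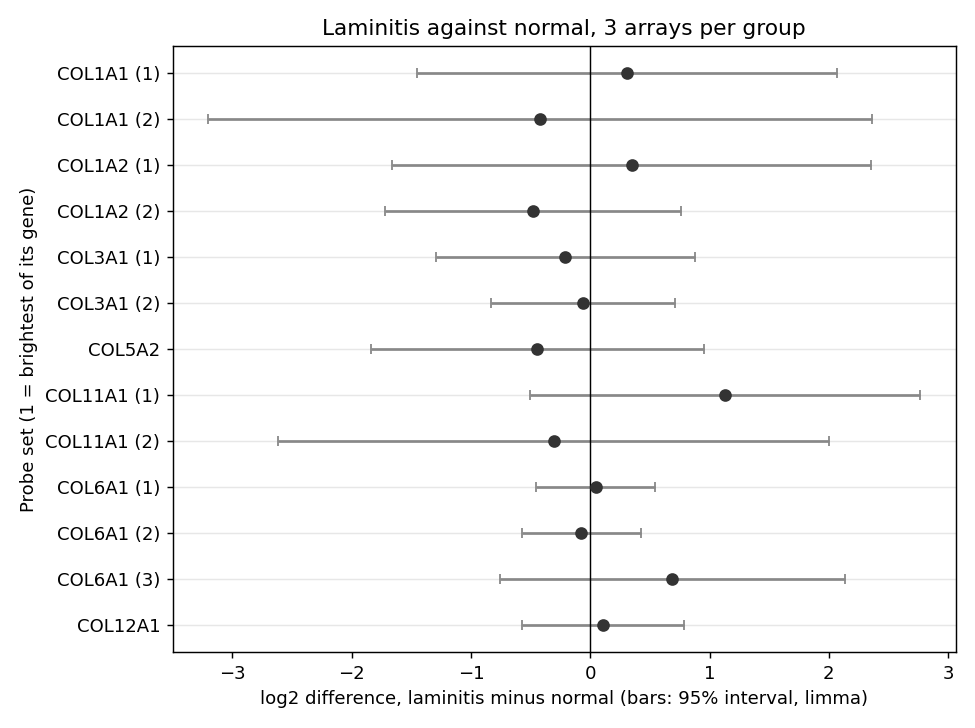
Log2 difference, laminitis minus normal, of the 13 tested collagen probe sets (points) with limma's 95% interval (bars), 3 arrays per group. Every bar crosses 0, and the bars are narrowest for the 2 bright COL6A1 probe sets and widest for the dimmer COL1A1 probe set, from -3.20 to 2.36.

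The order of the arrays was shared by most of the collagen probe sets. Replicate 4 was the highest array within both groups for 11 of the 13, a pattern seen in 11.2% of all tested probe sets. Within laminitis alone it was the highest for 11 of the 13, against 35.7% of all, within normal tissue for 12 of the 13, against 33.4%, and normal replicate 2 was the lowest normal array for 11 of the 13, against 29.9% of all. These counts were made after the values were seen, and the 13 probe sets read 7 genes. Averaged over the 13, the log2 deviation from each probe set's own mean was 0.90 on laminitis replicate 4 and 0.72 on normal replicate 4. It was -0.82 on normal replicate 2, -0.49 on laminitis replicate 1, -0.34 on laminitis replicate 3 and 0.022 on normal replicate 3. The labels do not say what a replicate number shares between groups, and over all tested probe sets the deviations of the replicate 4 arrays from their group means had a correlation of -0.031.

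The bright type I and type III probe sets moved most closely together. Over the 6 arrays COL1A1 and COL1A2 had a Pearson r of 0.98 (exact permutation p 0.00278, adjusted p 0.0584) and a Spearman rho of 0.94 (exact permutation p 0.0167, adjusted p 0.233). Without the 2 arrays farthest from the COL1A1 median, replicate 4 of each group, r was 0.93, and within groups, after each group's mean was taken off, it was 0.98. COL1A2 and COL3A1 had r of 0.92, or 0.90 without 2 arrays (exact permutation p 0.0222, adjusted p 0.155), and rho of 0.83 (exact permutation p 0.0583). COL1A1 and COL3A1 had r of 0.90, or 0.76 without 2 arrays (exact permutation p 0.0194, adjusted p 0.155), and rho of 0.89 (exact permutation p 0.0333). Of 21 pairs among the brightest probe sets of the 7 genes, 3 had an unadjusted p of r under 0.05 and 0 passed Benjamini-Hochberg adjustment, all tests two-sided.

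COL5A2 and COL11A1 followed less closely. COL1A1 had r of 0.74 and rho of 0.77 with COL5A2, an r that was -0.082 without the 2 replicate 4 arrays and so rests on them, and COL1A2 had r of 0.83 and rho of 0.89 with COL11A1, or r of 0.59 without laminitis replicate 4 and normal replicate 2. The brightest COL6A1 probe set had negative r with each of the other 6 genes, from -0.26 with COL11A1 to -0.67 with COL5A2. Without the 2 replicate 4 arrays, COL6A1 and COL1A1 had r of 0.42, where it was -0.53 over all 6 arrays. COL12A1 had r between 0.13 and 0.51 with the genes other than COL6A1, and most of these turned negative without 2 arrays. Without normal replicates 2 and 4, r was -0.71 with COL1A1, -0.85 with COL1A2, -0.91 with COL3A1 and -0.40 with COL5A2. With COL11A1, r was 0.069 without laminitis replicate 4 and normal replicate 2.

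**Figure D4:**
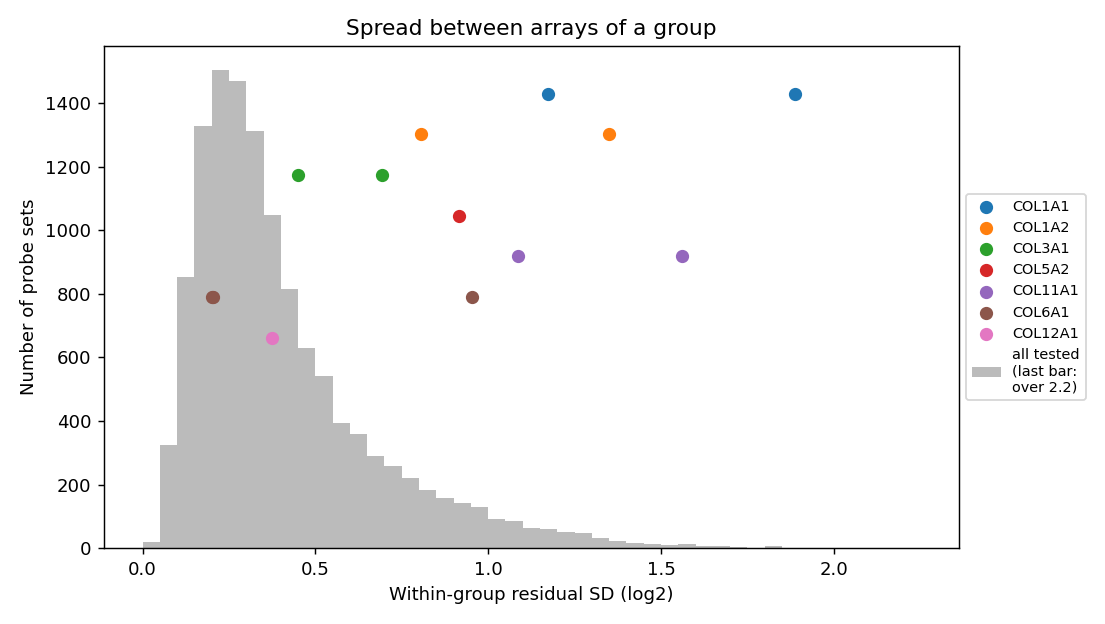
Number of tested probe sets (bars, all 12519) by within-group residual standard deviation on the log2 scale, with coloured points at the values of the 13 collagen probe sets; the height of the points only separates the genes. The COL1A1, COL1A2, COL5A2 and COL11A1 points lie in the right tail, from 0.80 to 1.89, as does the dim COL6A1 point at 0.95. The other 2 COL6A1 points lie at 0.20, left of the overall median of 0.33.

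Genes outside the collagens with the most similar profile were found by Pearson correlation over the 6 arrays with the mean deviation of the 13 collagen probe sets. Among 6144 genes compared, the 5 of highest r were PLAC8A (0.99), PLCD1, a phospholipase C (0.98), FSTL3, a secreted activin and myostatin antagonist (0.94), PPIE, a peptidyl-prolyl isomerase (0.94), and MDH2, mitochondrial malate dehydrogenase (0.94). PLCD1 read 235, 242 and 383 on laminitis replicates 1, 3 and 4 and 229, 303 and 362 on normal replicates 2, 3 and 4, with replicate 4 again highest in each group. FSTL3 read 91.6, 63.7 and 233 in laminitis and 54.0, 85.4 and 167 in normal tissue. In all, 22 genes had r over 0.9, and with 6 arrays per correlation no p is given.

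Among the matrix genes listed for collagen biology, POSTN, periostin, a collagen-binding protein of connective tissue, had the highest r with the collagen profile, at 0.93, and was named after its values were seen. It read 346, 209 and 873 on laminitis replicates 1, 3 and 4 and 108, 269 and 739 on normal replicates 2, 3 and 4, a log2 difference of 0.52 ± 0.78 (SE, n = 3). COL6A2 followed at 0.90, with signals of 330, 408 and 471 in laminitis and 330, 390 and 542 in normal tissue.

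Other collagen chains were tested for 13 of 34 listed genes, and 0 passed in either direction, with 10 of 13 negative and a median log2 difference of -0.26, beside -0.029 over all 6151 tested genes, of which 46.4% were positive. COL5A3, a further fibrillar type V chain, read 174, 112 and 150 on laminitis replicates 1, 3 and 4 and 78.0, 24.5 and 45.3 on normal replicates 2, 3 and 4. All 3 laminitis values exceeded all 3 normal ones, and the log2 difference was 1.69 ± 0.43 (SE, limma adjusted p 0.34). With 64 added to every signal it was 0.90, and the normal mean of 49.3 was under the median signal of all 6 arrays. Only the laminitis values lay above their array medians, so COL5A3 passed the brightness filter through laminitis alone. Such a filter favours groups that do not overlap, so the separation is not read as support for a difference. COL13A1, a transmembrane collagen, had -0.69 ± 0.22, and COL4A4, a basement membrane chain, had -1.65 ± 0.53, or -1.05 without laminitis replicate 1 and -0.72 with 64 added. Both had every laminitis array below every normal array, with limma adjusted p of 0.45 for each. COL4A4 averaged 40.1 in laminitis and passed the brightness filter through the normal arrays alone, which likewise favours groups that do not overlap. A second, dim COL4A4 probe set gave 0.033. Groups did not overlap for 5 of the 13 genes, COL5A3 and COL4A4 among them, against 17.1% of all genes. COL5A3 and COL4A4 were let in by 1 group alone, while COL13A1, COL4A3 and COL15A1 lay above the median on every array. With genes of both kinds in the count, the higher share is not read as a result.

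Of 31 symbols for collagen folding, modification and export, 15 were tested, 0 passed in either direction and 12 were negative, with a median of -0.29. P4HA3, a catalytic subunit of collagen prolyl 4-hydroxylase, read 66.4, 114 and 66.6 in laminitis and 248, 129 and 348 in normal tissue, with no overlap (log2 -1.49 ± 0.41 SE, limma adjusted p 0.36). MIA3, which helps load procollagen into transport carriers, had -0.56 ± 0.23, while 4 dim MIA3 probe sets ran from -1.60 to 0.23. P3H1, a prolyl 3-hydroxylase, had -0.48 ± 0.21. SERPINH1, the collagen chaperone HSP47, had -0.45 ± 0.40, and P4HB, the other prolyl hydroxylase subunit, had -0.081 ± 0.21. Groups did not overlap for 3 of the 15 genes, near the 17.1% of all genes.

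Of 16 genes for processing and cross-linking, 2 were tested, and 0 passed. LOXL1, a lysyl oxidase, averaged 374 in laminitis and 576 in normal tissue (log2 -0.73 ± 0.38 SE), or -0.42 without laminitis replicate 1, and PCOLCE, which speeds procollagen trimming, had 0.036 ± 0.25, or -0.15 without laminitis replicate 3 and -0.42 by another tested probe set. LOX and ADAMTS2, the cross-linking enzyme and the procollagen N-proteinase, had probe sets under the brightness filter only.

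The proteins that organise collagen fibrils had 16 tested genes of 24, with 0 past the test, 11 negative and a median of -0.36. DCN, the proteoglycan decorin that binds type I fibrils, read 724, 787 and 1199 on laminitis replicates 1, 3 and 4 and 2365, 1685 and 4898 on normal replicates 2, 3 and 4 (log2 -1.61 ± 0.42 SE, limma adjusted p 0.34). EPYC, epiphycan, had -1.12 ± 0.52, with a laminitis mean of 83.1, and FN1, fibronectin, had -0.72 ± 0.36. Without laminitis replicate 3 they had -0.49 and -0.35, and with 64 added EPYC had -0.63. In DCN, EPYC, FN1 and TNC the groups did not overlap, 4 of 16 genes against 17.1% of all genes.

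No receptor or degradation gene passed the test. Of 16 genes for receptors and uptake 7 were tested, all 7 negative, with 0 past the test and a median of -0.14. ITGA10, a collagen-binding integrin chain, had -0.38 ± 0.21, with 0.43 by another probe set, MRC2, the endocytic collagen receptor, had -0.87 ± 0.55, and CSPG4, a proteoglycan that binds type VI collagen, had -0.14 ± 0.19, with -1.16 by another tested probe set. MRC2 had -0.18 without laminitis replicate 1 and -0.11 with the replicate number as a block. Of 24 degradation genes 13 were tested, 8 negative, with 0 past the test and a median of -0.20. MMP15, a membrane-bound metalloproteinase, had -0.43 ± 0.18, the cysteine protease CTSV had 0.43 ± 0.20, and TIMP2, a metalloproteinase inhibitor, had -0.34 ± 0.30, with -0.037 and 0.26 by other tested probe sets and -0.10 without laminitis replicate 1. The collagenases MMP1 and MMP13 and the collagen-degrading cathepsin CTSK lay under the brightness filter.

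Regulators of collagen genes were the only 1 of these 7 lists with a positive median, at 0.099 over 18 tested of 35, with 12 positive and 0 past the test. FOS, an AP-1 subunit, had 2.34 ± 0.30 (limma adjusted p 0.13), while its dimmer probe set gave -0.017. SMAD2, a transducer of TGF-beta signals, read 1248, 1242 and 1164 in laminitis and 823, 845 and 601 in normal tissue (log2 0.70 ± 0.21 SE, limma adjusted p 0.40). CEBPB, a transcription factor of inflammation, had 1.46 ± 0.49, and 2.01 by another probe set. In these 3 of 18 genes the laminitis arrays all exceeded the normal ones, a share close to the 17.1% of all genes whose groups did not overlap. TGFB1, the cytokine that induces collagen transcription, had 1.33 ± 0.63 with overlapping groups, and its target CCN2 had 0.55 ± 0.91.

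**Figure D5:**
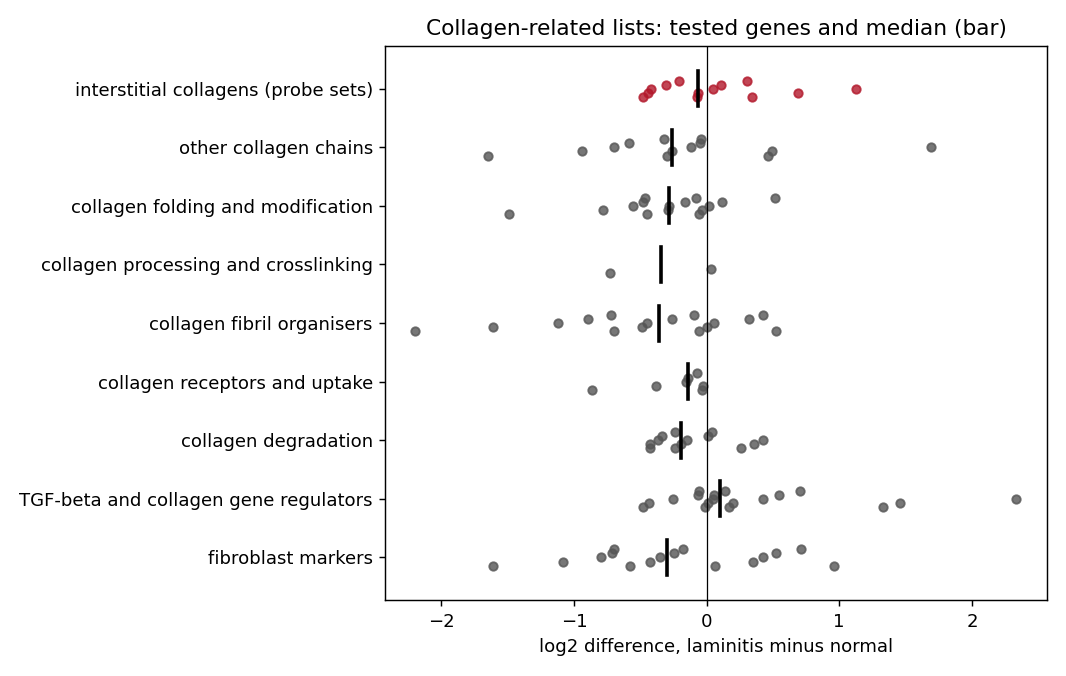
Log2 differences, laminitis minus normal, of the 13 tested interstitial collagen probe sets (red) and of the tested genes of 8 lists (grey), with a black bar at each median. The collagen median is -0.063, the regulators have the positive median of 0.099, and the other lists have medians from -0.36 to -0.14.

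Of 20 listed fibroblast markers 16 were tested, with 0 past the test, 10 negative and a median log2 difference of -0.30. The summed signal of the 16 was 9550 to 15735 in laminitis and 16759 to 29127 in normal tissue, so the groups did not overlap. Without VIM and DCN, a choice made after the values were seen, the sums were 6444 to 7518 and 7251 to 12575, and they overlapped. Single markers went both ways, with PDPN, CD34 and PDGFRA higher on every laminitis array than on any normal one, and VIM and DCN lower. That is 3 higher and 2 lower of the 16, where groups did not overlap for 17.1% of all genes. VIM had -1.08 ± 0.42, S100A4, a calcium-binding protein, -0.79 ± 0.31, and PDPN, podoplanin, 0.96 ± 0.29. No listed marker had a signal of 0, and the part of these markers in the collagen values was not tested.

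Markers of other cell types that the lamellae could hold were summed in the same way, each with 0 genes past the test. Over 7 smooth muscle and pericyte markers the sum was 3360 to 4617 in laminitis and 4365 to 5546 in normal tissue (median -0.34), with TAGLN at -0.83 ± 0.34, KCNJ8 at -0.43 ± 0.27 and CNN1 at -0.87 ± 0.61, or -0.11 for CNN1 without laminitis replicate 3 and -0.49 for TAGLN without laminitis replicate 1. Over 11 keratinocyte markers it was 3816 to 5925 and 3674 to 5028 (median 0.078), with ITGB4 at 1.29 ± 0.57, KRT17 at 0.60 ± 0.32 and CDH1 at -0.38 ± 0.25, or 0.99 by another CDH1 probe set. SFN, the brightest of these 11, read 1411 to 2701 in laminitis and 1650 to 2238 in normal tissue. Over 7 endothelial markers the sum was 857 to 1255 and 926 to 1421 (median -0.050), with EMCN at -0.15 ± 0.52, ENG at -0.095 ± 0.43 and PECAM1 at 0.043 ± 0.21. The signs of those 3 endothelial genes each turned with an array left out, to 0.45 for EMCN and -0.062 for PECAM1 without laminitis replicate 4 and to 0.35 for ENG without normal replicate 3.

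Over 11 leukocyte markers the sum was 1717 to 1827 in laminitis and 1927 to 2114 in normal tissue (median -0.24), with CD2 at -0.98 ± 0.38, MPO at -0.44 ± 0.21 and ITGB2 at -0.38 ± 0.26. Over 4 Schwann cell markers it was 672 to 944 and 768 to 1017 (median -0.29), with NGFR at -0.93 ± 0.40, S100B at -0.31 ± 0.25 and MBP at -0.26 ± 0.26, with -0.19 by another MBP probe set. Without laminitis replicate 1, NGFR had -0.51 and MBP -0.023. NGFR passed the brightness filter through the normal arrays alone. Over 2 adipocyte markers it was 230.4 to 311 and 309.6 to 424 (median -0.51), with FABP4 at -0.88 ± 0.26 and LIPE at -0.14 ± 0.25, or 0.024 without laminitis replicate 3 and -0.16 and 0.33 by other tested LIPE probe sets. Over 6 cartilage and bone markers it was 3972 to 5561 and 4287 to 4711 (median -0.20), with ACAN at -0.26 ± 0.22, MATN1 at -0.22 ± 0.21, or -0.39 by another probe set, and COL10A1 at -0.30 ± 0.33, or -0.017 without laminitis replicate 3. IBSP, the brightest of these 6, made up most of that sum, with 2920 to 4260 in laminitis and 2966 to 3288 in normal tissue. Its log2 difference was 0.11 ± 0.22. Dim probe sets under the brightness filter gave -0.33 and 0.049 for CD2, 0.17 for MPO, 0.17 and -0.41 for NGFR and 0.097 for MBP. Others gave 0.034 for FABP4, -0.19 for LIPE and 0.78 and 0.73 for ACAN. Of the 42 genes named from the lists by the smallest p, 28 had a difference that an array left out moved by over 1.5 times.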

How the data were processed

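RNA from the 6 samples was copied with a T7-linked oligo(dT) primer, amplified in 1 cycle, labelled and hybridised, per the labels' protocols. As deposited, each probe set has 1 intensity per array on a linear scale, and each array has a trimmed mean of 150.02 to 150.03. The submitters' processing notes name GCRMA, whose log2 output these values do not resemble, so the step that made them is open. Bovine probes read horse RNA, so probe sets are called brighter or dimmer only to tell those of a gene apart. Symbols were those of the GEO platform table, where 13292 of 24016 probe sets had 1 symbol, 86 several and 10638 none. The 112 control probe sets were left out of the tests.

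Log2 values without an offset were fitted with limma 3.58.1 (lmFit, eBayes) under R 4.3.3. The 12519 probe sets brighter than their own array's median on at least 3 arrays entered, and two-sided p-values were adjusted over them by the Benjamini-Hochberg method with a threshold of 0.05. The error after ± is the standard error from limma unless SD is written, and a fold compares geometric means. Each collagen probe set was kept apart, and any other gene was represented by its brightest tested probe set. From each of 15 lists the 3 genes of smallest p were named, along with the 5 genes of most similar profile. A few more were named for their role or brightness after their values were seen (SERPINH1, P4HB, TNC, CD34, PDGFRA, TGFB1, CCN2, VIM, KRT14, COL6A2, POSTN, IBSP, SFN). The members and lists were chosen with earlier results of these data known. Scripts were tested on simulated data. The 18 alternatives were 3 filters, 2 offsets, 3 normalizations, 3 variance models, the replicate number as a block, and each array left out, with the fibroblast sum without VIM and DCN added after the data were seen. No probe set had the same value on any pair of arrays. Protein and promoter sequences were not used here.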

Additional observations from a re-analysis of the deposited data

How the results depend on the processing

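No collagen probe set passed in limma under any of the 18 alternatives run. Over all probe sets 0 passed as lower in each, and as higher 6 passed with the filter at all 6 arrays above the median, 4 with an intensity trend and robust variance and 0 to 2 with an array left out, the 2 without laminitis replicate 4. FOS was among those higher, at adjusted p of 0.027 and 0.044 under the filter and the trend. The collagen median lay between -0.37 and 0.19 with an array left out. Signs of collagen differences were not stable, and 10 of the 13 tested probe sets changed sign under some alternative. After quantile normalization COL1A1 had -0.074 and COL1A2 -0.048, and after cyclic loess -0.058 and -0.029, with ENG at 0.010. Median centring gave 0.020 for the dimmer COL3A1 and 0.0069 for the second COL6A1 probe set, and array weights 0.0026 for the dimmer COL3A1.

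With an array left out the log2 difference ran from -0.36 to 0.93 for the bright and -1.59 to 0.53 for the dimmer COL1A1 probe set, from -0.37 to 1.04 for COL1A2, from -0.62 to 0.11 and -0.38 to 0.19 for COL3A1, from -1.08 to 0.076 for COL5A2, from -1.26 to 0.77 for the second COL11A1, from -0.087 to 0.14 and -0.21 to 0.038 for the bright COL6A1 probe sets and from -0.14 to 0.34 for COL12A1. Among other genes it ran from -0.31 to 0.024 for LIPE, -0.51 to 0.35 for ENG, -0.15 to 0.18 for PCOLCE, -0.072 to 0.12 for PECAM1 and -0.53 to 0.45 for EMCN. The causes of these changes were not tested.

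Replicate numbers 3 and 4 occur in both groups, but no label says what they share, and deviations from group means over all tested probe sets had correlations of -0.017 for number 3 and -0.031 for number 4. With the replicate block, COL1A1 had -0.0045, the second COL11A1 probe set 0.34 and COL12A1 -0.27, and 0 collagen and 0 other probe sets passed. No detection calls were used, so dim values have no lower bound.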
